A study of Mus musculus with 9 samples.

Results

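The genes described here are 7 markers of regulatory T cells, the CD4+ T cells that restrain immune responses: Foxp3, Ikzf2, Nrp1, Itgae, Capg, Gpr83 and Izumo1r (older name Folr4). Their RNA was measured in mouse T cells after immunoprecipitation of Argonaute (AGO), to which microRNAs and their target transcripts are bound. The members were the probe sets whose platform annotation gives 1 gene symbol, where that symbol is one of the 7. They came to 15 of 34945 such probe sets and to 7 of 18193 genes. Each gene is described by its brightest probe set, the one with the highest mean over all 9 arrays, with the others beside it. Values are log2 array signals.

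The T cells were of C57BL/6 origin and were cultured for 24 h in 1 of 3 ways. Allogeneic cultures held dendritic cells of BALB/c mice, a foreign strain, at 20 T cells per dendritic cell. Anti-CD3/CD28 cultures were stimulated at 0.1 µg/ml with antibodies against CD3e and CD28, with no dendritic cells named in the labels. Syngeneic cultures held dendritic cells of the T cells' own strain, C57BL/6, again at 20 T cells per dendritic cell. In all groups the cells were then passed over magnetic beads to remove other cell types, crosslinked with ultraviolet light and lysed for immunoprecipitation with an AGO antibody. Each group had 3 arrays, numbered as biological replicates 1 to 3, and the labels do not name the animals or cultures behind a number, so the p-values measure the spread between these arrays. Total RNA from before the immunoprecipitation is not analysed here. A difference can therefore come from the amount of a transcript, from its binding to AGO or from the share of cells that make it, and fewer cells of a type cannot be told apart from less RNA per cell.

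Foxp3 is the transcription factor that defines regulatory T cells, and its loss causes fatal autoimmunity in mice. Ikzf2 encodes Helios, a zinc-finger factor abundant in regulatory T cells of thymic origin, and Nrp1 encodes neuropilin-1, a receptor for semaphorins and growth factors that marks the same cells in mice. Itgae encodes CD103, the integrin subunit that binds E-cadherin together with the product of Itgb7. Izumo1r encodes the folate receptor 4 of T cells, Gpr83 a G protein-coupled receptor and Capg an actin-capping protein. Several are shared with other cells: Nrp1 with dendritic, endothelial and stromal cells, Itgae with CD8+ T cells and some dendritic cells, and Capg with macrophages. The cultures here were of T cells as a whole, and regulatory T cells were not sorted from them.

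T cell genes were bright: all 13 measured T cell genes exceeded the array median on every array, and Cd3e stood between 10.31 and 11.45. B cell genes were seen as well. Of the 7 measured, 0 or 1 per array lay at or under the array median. Ighm, 1 of them, had group means of 12.32 (allogeneic), 11.66 (anti-CD3/CD28) and 12.99 (syngeneic). The part of B cells in the members' values was not tested. Arrays grouped by replicate number rather than by culture: the number held a median of 92.7% of a gene's variance over the 9 arrays and culture 2.1%. Within a number, 19.7% to 49.9% of probe sets had exactly equal values on 2 arrays, and 0% did between numbers, so equal values on such a pair cannot be read as a measurement that nothing changed. The allogeneic and anti-CD3/CD28 arrays of number 1 were nearly the same, with an SD of 0.103 (log2) for their difference across genes, against 0.422 to 0.754 for the other 8 pairs with a shared number.

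Promoter sequences are shown for Foxp3, the defining gene, and for Gpr83 and Izumo1r, which are neighbours. On mouse chromosome 9 (GRCm38.p6) Gpr83 spans chr9:14859880-14870789 on the plus strand and Izumo1r spans chr9:14885814-14903951 on the minus strand. The 2 genes face each other across 15024 bases, with 0 annotated genes between them. The other members lie apart: Ikzf2 on chromosome 1, Capg on 6, Nrp1 on 8, Itgae on 11 and Foxp3 on X. The promoter windows run from 250 bases before to 50 bases after an annotated start in RefSeq (GRCm38.p6), on the strand of the gene: chrX:7579426-7579725, plus strand, for Foxp3 (the first of its 2 listed starts), chr9:14859960-14860259, plus strand, for Gpr83, and chr9:14903718-14904017, minus strand, for Izumo1r. Capitals mark the words TATAAA, the letters of a TATA box, and GGAAA, the core bound by NFAT factors, on either strand.
Foxp3: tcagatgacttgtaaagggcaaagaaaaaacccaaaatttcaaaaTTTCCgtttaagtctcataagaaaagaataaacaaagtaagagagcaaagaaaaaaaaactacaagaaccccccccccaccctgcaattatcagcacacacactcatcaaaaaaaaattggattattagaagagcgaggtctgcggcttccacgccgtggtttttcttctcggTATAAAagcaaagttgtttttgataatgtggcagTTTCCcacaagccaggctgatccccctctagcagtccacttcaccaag
Gpr83: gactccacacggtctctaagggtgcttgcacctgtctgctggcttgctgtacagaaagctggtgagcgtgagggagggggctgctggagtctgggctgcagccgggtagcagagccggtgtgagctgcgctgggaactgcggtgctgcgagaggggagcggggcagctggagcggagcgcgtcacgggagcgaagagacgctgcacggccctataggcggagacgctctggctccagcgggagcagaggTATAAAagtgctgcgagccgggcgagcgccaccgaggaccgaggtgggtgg
Izumo1r: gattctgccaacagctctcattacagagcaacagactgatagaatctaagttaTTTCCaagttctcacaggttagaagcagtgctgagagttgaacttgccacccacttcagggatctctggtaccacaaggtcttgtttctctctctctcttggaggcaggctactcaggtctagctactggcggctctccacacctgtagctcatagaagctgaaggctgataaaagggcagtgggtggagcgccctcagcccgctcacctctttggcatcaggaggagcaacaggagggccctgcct
TATAAA began 32 bases before the start of Foxp3 (−32) and at −1 for Gpr83, and so stood in both windows, as in 13.6% of all 32851 promoter windows, and GGAAA in those of Foxp3 and Izumo1r, as in 61.3%. The words TTCNNNGAA, bound by STAT factors, and TGTTTAC, bound by forkhead factors, stood in 8.3% and 3.6% of all windows and were not in these 3. The window of the second listed start of Foxp3, not printed, holds a TTCNNNGAA word at −139 and a GGAAA word at −140, which overlap. The arrays carry no measurement of promoter activity.

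No member was called different between any 2 cultures. In limma's fit over 18193 genes with Benjamini-Hochberg adjustment, 0 of the 7 passed an adjusted p of 0.05 in each of the 3 comparisons, as did 0 of all genes (background 0%). At an unadjusted p under 0.05 there were 0 members in each, against 27 genes (0.148%) for allogeneic versus syngeneic, 156 (0.857%) for anti-CD3/CD28 versus syngeneic and 24 (0.132%) for allogeneic versus anti-CD3/CD28. With the replicate number as a block these were 825 (4.53%), 1236 (6.79%) and 205 (1.13%) genes, and again 0 members. Standard errors (SE) given below come from the fit without the block. They include the spread between replicate numbers and do not measure the spread of the differences within numbers. The members' values on the 9 arrays overlapped between the cultures for all 7 genes in all 3 comparisons, where groups did not overlap for 0.643%, 1.93% and 0.324% of genes. With 3 arrays against 3, an exact permutation test of a single gene cannot go below p = 0.1.

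**Figure D1:**
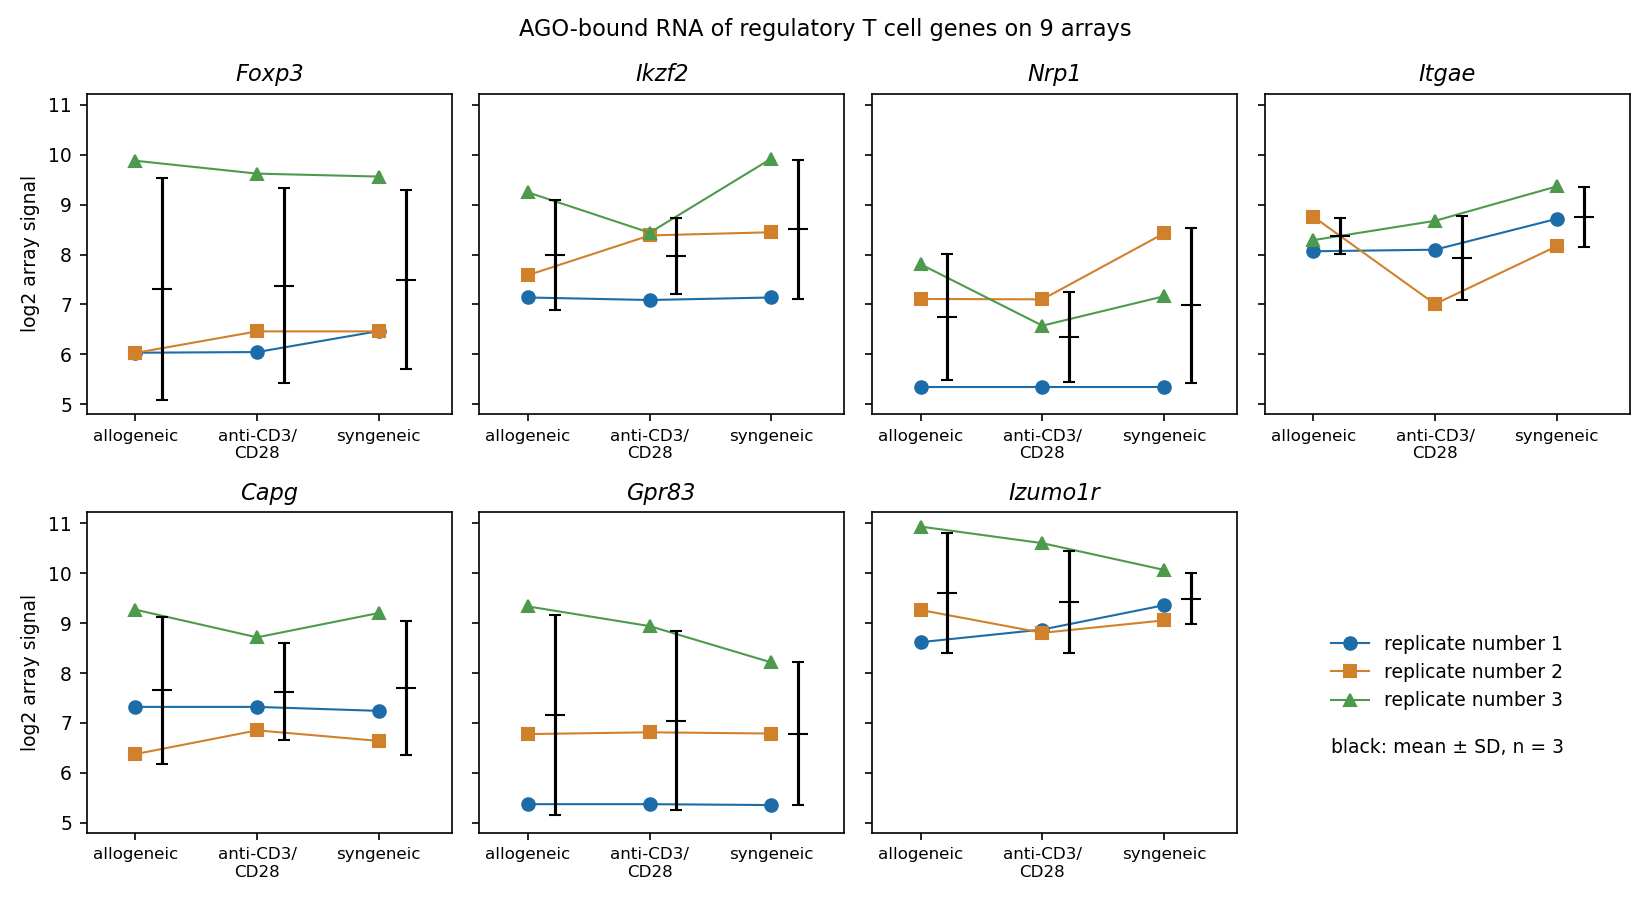
Log2 array signal (vertical axis) of the brightest probe set of each of the 7 genes in the allogeneic, anti-CD3/CD28 and syngeneic cultures (horizontal axis). Coloured points and lines join the 3 arrays of a replicate number and black bars give the mean ± SD of 3 arrays; for Foxp3, Capg, Gpr83 and Izumo1r all 3 arrays of number 3 lie above the other 6.

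Foxp3 differed by replicate number and hardly by culture. Its signals on replicates 1, 2 and 3 were 6.03, 6.03 and 9.88 in allogeneic cultures, 6.05, 6.46 and 9.62 in anti-CD3/CD28 cultures, and 6.47, 6.46 and 9.56 in syngeneic cultures. The 3 arrays of number 3, at 9.56 to 9.88, were brighter than the other 6, at 6.03 to 6.47. They stood at the 89.2nd to 91.1st percentile of probe sets on their arrays, against the 52.1st to 76.5th percentile in numbers 1 and 2. Replicate number held 98.7% of the variance of Foxp3 and culture 0.2%. The allogeneic minus syngeneic differences were −0.43, −0.43 and 0.32 within numbers 1, 2 and 3, a mean of −0.18 ± 1.24 (SE; limma, adjusted p = 1.0). With the replicate block the 95% interval of this difference ran from −0.69 to 0.32. The anti-CD3/CD28 minus syngeneic difference was −0.12, with an interval from −0.63 to 0.39, and the 2 arrays of number 2 had exactly equal values. Foxp3 has 1 probe set on the array, so no second measurement stands beside it.

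Ikzf2, the gene of Helios, was lower in both stimulated cultures than in syngeneic culture on average, and not beyond the spread. It stood at 7.14, 7.59 and 9.25 in allogeneic cultures, 7.09, 8.38 and 8.44 in anti-CD3/CD28 cultures, and 7.14, 8.45 and 9.92 in syngeneic cultures. The number 1 arrays lay together, and the low values were allogeneic replicate 2 and anti-CD3/CD28 replicate 3, each set against the other 2 arrays of its number. Allogeneic minus syngeneic was −0.51 ± 0.81 (SE; limma, adjusted p = 1.0) and anti-CD3/CD28 minus syngeneic −0.53 ± 0.81 (adjusted p = 1.0). The anti-CD3/CD28 difference was negative in all 3 numbers (−0.05, −0.06 and −1.49), a size that 51.5%, 60.0% and 5.72% of genes reached in those numbers. The 2 other probe sets of Ikzf2 did not share these signs throughout: they differed by 0.20 and −0.32 for allogeneic minus syngeneic and by −0.16 and 0.20 for anti-CD3/CD28 minus syngeneic.

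Nrp1 had the same value on all 3 arrays of number 1 and differed between cultures in numbers 2 and 3. Its signals were 5.35, 7.11 and 7.81 in allogeneic cultures, 5.35, 7.10 and 6.58 in anti-CD3/CD28 cultures, and 5.35, 8.42 and 7.16 in syngeneic cultures. Syngeneic replicate 2 was the brightest of all 9 arrays. Within number 2 both stimulated cultures were lower than the syngeneic one, by −1.31 (allogeneic) and −1.32 (anti-CD3/CD28), while within number 3 allogeneic was higher by 0.64 and anti-CD3/CD28 lower by −0.59. The means were −0.22 ± 0.89 (SE) for allogeneic minus syngeneic and −0.64 ± 0.89 for anti-CD3/CD28 minus syngeneic (limma, adjusted p = 1.0 each).

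In both comparisons with syngeneic culture, the 3 brighter probe sets of Nrp1 had the same signs in numbers 2 and 3 and differed in number 1. Allogeneic minus anti-CD3/CD28 in number 2 was 0.008, 0.136 and −0.447 on them, so the sign was not shared there. The second and the next in brightness gave −0.06, −1.10 and −0.85, and −0.86, −1.32 and −1.12, for anti-CD3/CD28 minus syngeneic in numbers 1, 2 and 3. Those are means of −0.67 and −1.10, each with adjusted p = 1.0 in limma over 34945 probe sets, or 0.736 with the replicate block. On the third of these probe sets the allogeneic and anti-CD3/CD28 arrays of number 1 did not exceed the array median, so −0.86, the allogeneic minus syngeneic value of −0.85 in that number and the mean of −1.10 have no exact size. The dimmest, which did not exceed the array median on any of the 9 arrays, differed by 0.14. On the allogeneic side the first 3 probe sets were lower than syngeneic in number 2 (−1.31, −0.96 and −1.77) and higher in number 3 (0.64, 0.41 and 0.88).

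**Figure D2:**
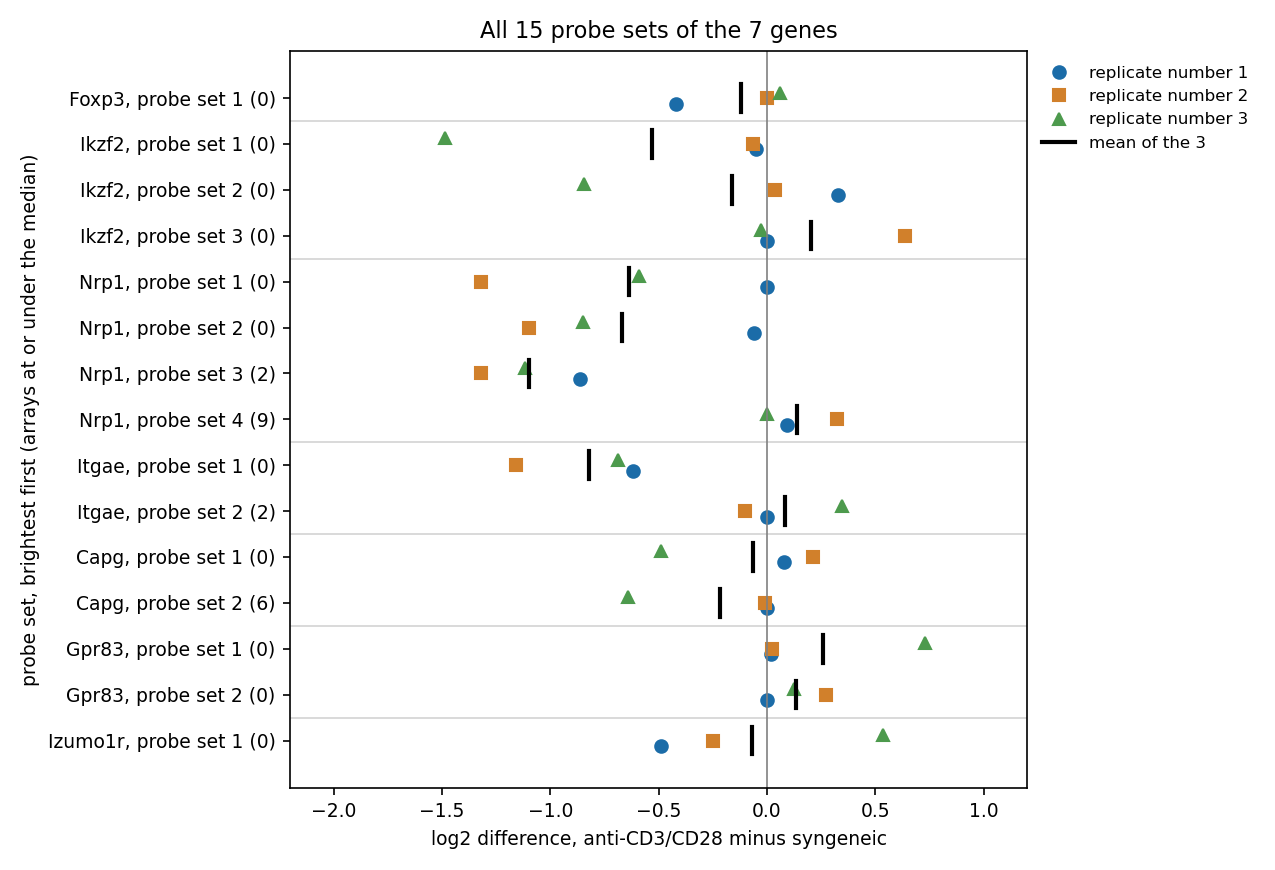
Log2 difference between anti-CD3/CD28 and syngeneic cultures (horizontal axis, anti-CD3/CD28 minus syngeneic) for each of the 15 probe sets of the 7 genes (vertical axis, brightest first; in parentheses the number of arrays at or under the array median). Points are the 3 replicate numbers and black bars their mean; the first 3 Nrp1 probe sets have means of −0.64, −0.67 and −1.10, and the 2 Itgae probe sets have means of −0.82 and 0.08.

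Markers of endothelial and stromal cells, which also make Nrp1, differed between cultures mainly in number 2. The 8 endothelial and stromal genes had a mean signal of 7.84 on allogeneic and 7.52 on anti-CD3/CD28 replicate 2, and were highest on syngeneic replicate 2, with a mean difference within number 2 of −1.16 (allogeneic) and −1.48 (anti-CD3/CD28) from it. Their mean was 4.57 to 4.68 on the 6 arrays of numbers 1 and 3, where 6 or 7 of the 8 lay at or under the array median. Summed on the linear scale, these genes came to 223 to 2900 in allogeneic, 223 to 2040 in anti-CD3/CD28 and 254 to 8470 in syngeneic cultures. Col1a2, a collagen gene, stood at 9.23, 8.79 and 11.31 on those 3 arrays of number 2, in the same order, and at or under the median on the other 6. Pecam1, an endothelial gene of the list, did not keep this order, at 8.44, 7.96 and 8.15. Allogeneic minus syngeneic in number 2 was −0.246 for Cdh5 and −0.441 for Tek, also of the list, against −2.08 for Col1a2.

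The 16 measured dendritic cell genes differed by a median of −0.63 for anti-CD3/CD28 minus syngeneic, 13 of them lower, and by −0.16 for allogeneic minus syngeneic, 12 lower, against 0.00 and 0.03 over all genes. Their summed signal was 6300 to 25100 in allogeneic, 4630 to 9400 in anti-CD3/CD28 and 7740 to 22700 in syngeneic cultures, with 3 to 6 of them at or under the median per array. Xcr1, a marker of cross-presenting dendritic cells that often carry CD103, exceeded the median on none of the 9 arrays. All 14 measured macrophage and monocyte genes were lower in both stimulated cultures, by a median of −0.63 in allogeneic and −0.96 in anti-CD3/CD28. Their summed signal was 906 to 1830 in allogeneic, 417 to 1130 in anti-CD3/CD28 and 6750 to 9480 in syngeneic cultures. The part of these cells in the values of Nrp1, Itgae and Capg was not tested.

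**Figure D3:**
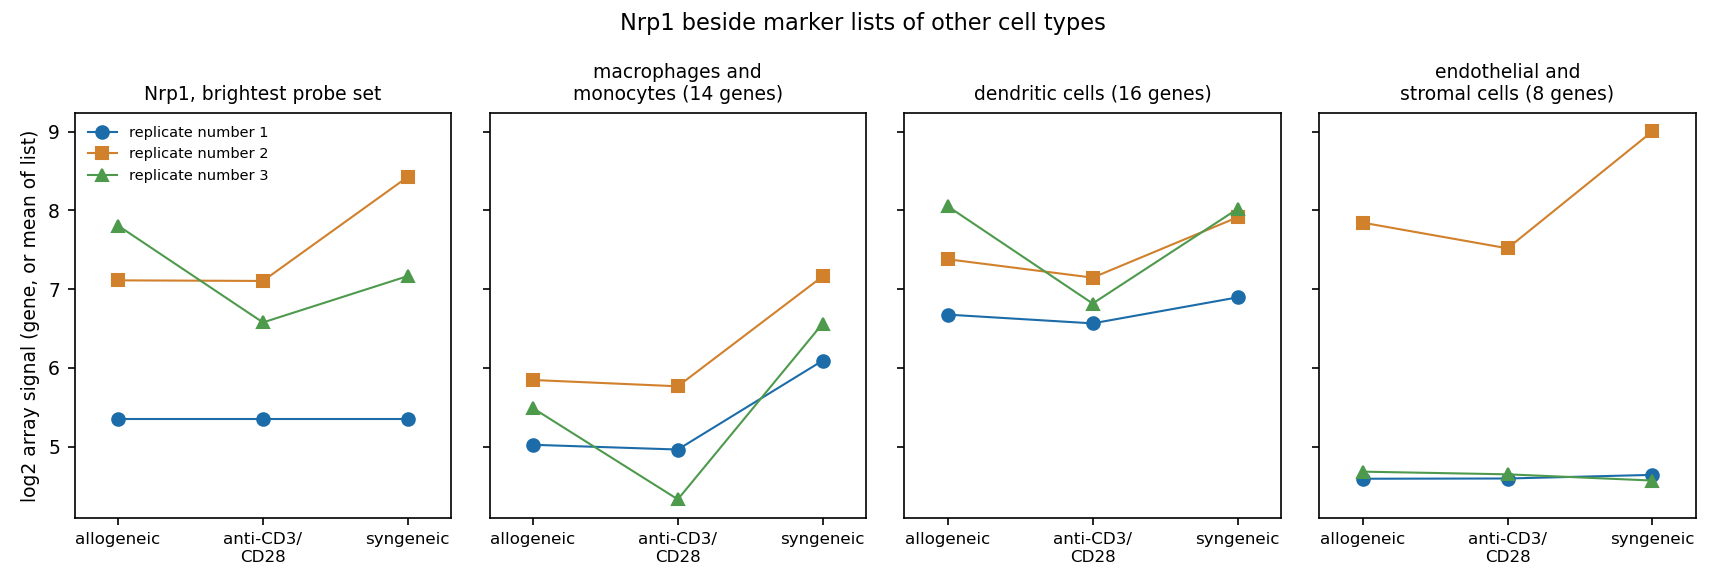
Log2 array signal of Nrp1 (brightest probe set) and mean log2 signal of 3 marker lists (vertical axis, shared) in allogeneic, anti-CD3/CD28 and syngeneic cultures, with a line for each replicate number. In number 2 Nrp1 and all 3 lists were highest in syngeneic culture. In number 3 Nrp1, the dendritic cell list and the macrophage list were lowest in anti-CD3/CD28 culture. Nrp1 was higher in allogeneic than in syngeneic culture there, with the macrophage list at 5.49 against 6.56. The dendritic cell list was at 8.05 against 8.02 and the endothelial and stromal list at 4.68 against 4.57. In number 1 Nrp1 was equal on all 3 arrays, with the macrophage list at 5.02 (allogeneic), 4.96 (anti-CD3/CD28) and 6.09 (syngeneic).

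By brightest probe sets, Itgae was the member whose variance was least tied to replicate number, with 28.4% for number and 29.7% for culture. Its signals were 8.07, 8.76 and 8.29 in allogeneic cultures, 8.10, 7.01 and 8.68 in anti-CD3/CD28 cultures, and 8.71, 8.17 and 9.36 in syngeneic cultures. Anti-CD3/CD28 was lower than syngeneic culture in each number, by −0.62, −1.16 and −0.69, a mean of −0.82 ± 0.61 (SE; limma, adjusted p = 1.0). With the replicate block the 95% interval ran from −1.91 to 0.27 (adjusted p = 0.729). The second probe set of Itgae had no such pattern, with exactly equal values in number 1 and differences of −0.10 and 0.35 in numbers 2 and 3. On 2 arrays it was no brighter than the array median. Its values followed the number, at 4.59 in number 1, 5.67 to 6.26 in number 2 and 6.67 to 7.36 in number 3. Allogeneic minus syngeneic was −0.65, 0.59 and −1.08 in the 3 numbers, so the sign differed between them.

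Itgb7, which encodes the integrin partner of CD103, had equal values on all 3 arrays of number 2 (10.10), and differed by −0.30 ± 0.50 (SE) for allogeneic minus syngeneic (limma, adjusted p = 1.0). Cd8a and Cd8b1, which mark the CD8+ T cells that can also carry CD103, stood between 10.77 and 12.04 and between 8.32 and 11.46 on the 9 arrays. For anti-CD3/CD28 minus syngeneic they differed by means of 0.30 and 0.935, with −0.05 and −0.07 in number 1. The part of CD8+ T cells in the values of Itgae was not tested.

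Izumo1r differed from syngeneic culture in opposite directions in different replicate numbers. It stood at 8.62, 9.26 and 10.93 in allogeneic cultures, 8.87, 8.81 and 10.60 in anti-CD3/CD28 cultures, and 9.36, 9.05 and 10.07 in syngeneic cultures. Allogeneic minus syngeneic was −0.74, 0.21 and 0.87 within the numbers, a mean of 0.11 ± 0.68 (SE; limma, adjusted p = 1.0). Its 95% interval with the replicate block was −0.67 to 0.90. In number 1 syngeneic culture was the highest of the 3 cultures and in number 3 the lowest. Izumo1r has 1 probe set.

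Gpr83, its neighbour on chromosome 9, was 5.37, 6.78 and 9.33 in allogeneic cultures, 5.37, 6.81 and 8.94 in anti-CD3/CD28 cultures, and 5.36, 6.79 and 8.21 in syngeneic cultures. The 3 cultures lay within 0.04 of each other in numbers 1 and 2, and in number 3 both stimulated cultures were higher, by 1.12 (allogeneic) and 0.73 (anti-CD3/CD28). Differences of at least 1.12 in either direction were found for 3.88% of genes between those 2 arrays. The mean difference of allogeneic minus syngeneic was 0.38 ± 1.13 (SE; limma, adjusted p = 1.0). Its 95% interval with the replicate block was −0.25 to 1.00. For allogeneic minus syngeneic the second probe set gave 0.42 in number 3 and exactly equal values in numbers 1 and 2.

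Capg, the actin-capping gene that macrophages share, differed little. It stood at 7.32, 6.38 and 9.27 in allogeneic cultures, 7.32, 6.85 and 8.71 in anti-CD3/CD28 cultures, and 7.24, 6.64 and 9.20 in syngeneic cultures. The means were −0.04 for allogeneic minus syngeneic and −0.07 for anti-CD3/CD28 minus syngeneic, each ± 0.89 (SE; limma, adjusted p = 1.0). With the replicate block the intervals were −0.58 to 0.50 and −0.61 to 0.48. The second probe set of Capg, which did not exceed the array median on 6 arrays, differed by −0.17 and −0.22. The macrophage gene Lyz2 was 8.68, 9.04 and 9.44 in allogeneic, 8.23, 8.12 and 6.32 in anti-CD3/CD28 and 12.61, 10.87 and 11.44 in syngeneic cultures on the same arrays.

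**Figure D4:**
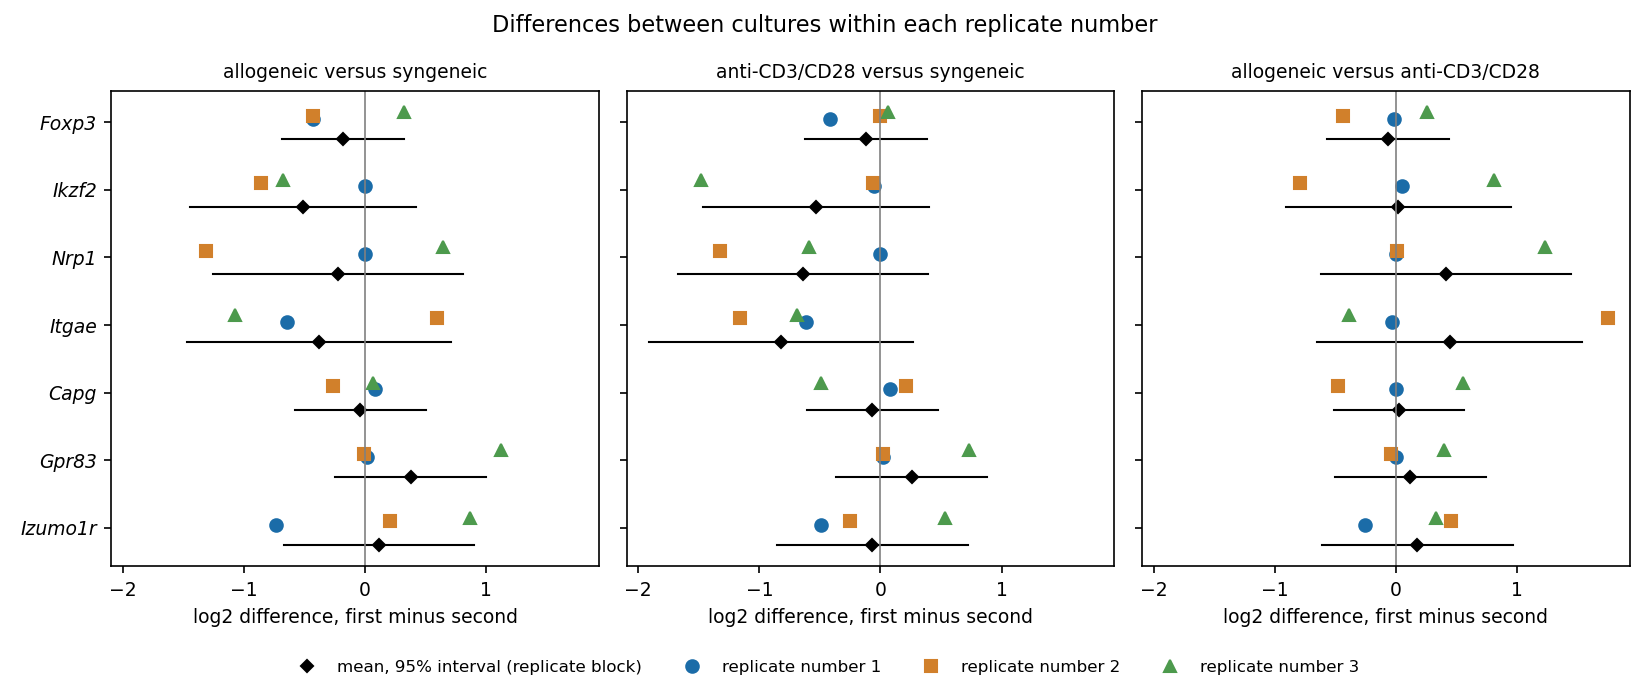
Log2 difference (horizontal axis, first culture minus second) of each of the 7 genes (vertical axis) in the 3 comparisons. Coloured points are the differences within replicate numbers 1, 2 and 3, and black diamonds with lines are the means with their 95% intervals from limma with the replicate block; all 21 intervals include 0.

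Set side by side, the cultures kept no common order over the members. By mean signal syngeneic culture was the highest for Foxp3, Ikzf2, Nrp1, Itgae and Capg, and allogeneic culture for Gpr83 and Izumo1r. The widest gap between a gene's group means was 0.82 for Itgae. No 2 neighbours in any gene's order differed by more than the larger of their SDs, which were 1.79 to 2.22 for Foxp3 and 0.35 to 0.85 for Itgae. Allogeneic and anti-CD3/CD28 cultures differed by −0.06 ± 1.24 (SE) for Foxp3, 0.02 ± 0.81 for Ikzf2, 0.41 ± 0.89 for Nrp1, 0.44 ± 0.61 for Itgae, 0.03 ± 0.89 for Capg, 0.12 ± 1.13 for Gpr83 and 0.18 ± 0.68 for Izumo1r.

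Counted within replicate numbers, 0 of 7 members were higher in allogeneic than in syngeneic culture in all 3 numbers (7.29% of all genes) and 0 were lower (7.96%). For anti-CD3/CD28 versus syngeneic culture 1 member, Gpr83, was higher in all 3 (7.8% of genes) and 2, Ikzf2 and Itgae, were lower (9.15%). For allogeneic versus anti-CD3/CD28 culture the counts were 0 (4.39%) and 0 (2.58%). By mean difference, 2 members were higher (56.0% of genes) and 5 lower (41.7%) in allogeneic than in syngeneic culture. In anti-CD3/CD28 against syngeneic culture 1 was higher (48.5%) and 6 lower (47.2%), and in allogeneic against anti-CD3/CD28 culture 6 were higher (60.1%) and 1 lower (35.0%). A mean difference of at least 0.5 either way was seen for 1 member (Ikzf2; 9.61% of genes), 3 members (Ikzf2, Nrp1 and Itgae; 14.1%) and 0 members (7.72%) in the same comparisons. The median difference of the 7 was −0.18, −0.12 and 0.12 in the 3 comparisons, against 0.03, 0.00 and 0.04 over all genes. Over the 7 members and the 9 pairs of arrays with a shared number, 7 of 63 pairs of values were exactly equal (11.1%), against 29.1% over all genes, and 3 of those 7 were of Nrp1 in number 1.

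After removal of each number's mean, the profiles of the 21 pairs of members over the 9 arrays had correlations from −0.52 (Itgae and Gpr83) to 0.83 (Ikzf2 and Capg), given as a description. Gpr83 and Izumo1r were at 0.68. Foxp3 was at 0.31 to 0.46 with Ikzf2, Nrp1, Capg, Gpr83 and Izumo1r, and at −0.37 with Itgae. Among 9096 genes brighter than the median gene, those most like Foxp3 by this measure were Rsrc1 (0.975), Gaa (0.965) and Srek1ip1 (0.951). Those most like Ikzf2 were Txndc12 (0.993), Mcee (0.991) and Rtn3 (0.99), and for Nrp1 Mgll (0.996), Timp3 (0.994) and Adipor2 (0.988). They were Nfkbiz (0.978), Tlr1 (0.938) and Slc50a1 (0.935) for Itgae, Tmed8 (0.986), Ndufb5 (0.985) and Mcu (0.983) for Capg, Akt1s1 (0.999), Bod1l (0.998) and Coa7 (0.998) for Gpr83, and Gtpbp6 (0.952), Orai1 (0.946) and Reep4 (0.944) for Izumo1r. These values are the highest over all those genes, on 9 arrays of which each 3 share a number.

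Other genes of the regulatory T cell pathway were taken from lists written down for this work with earlier results in view, and 0 of them passed limma's adjusted p in any comparison. Among 21 surface and effector genes, 3 were higher in allogeneic than in syngeneic culture in all 3 numbers (Il2ra, Tnfrsf4 and Lag3; 7.29% of all genes) and 4 lower (Tnfrsf1b, Fgl2, Klrg1 and Cd83; 7.96%). Il2ra, the high-affinity subunit of the receptor for interleukin-2 on which regulatory T cells depend, was 10.47, 11.06 and 11.71 in allogeneic, 10.29, 10.75 and 11.43 in anti-CD3/CD28 and 9.60, 10.47 and 11.18 in syngeneic cultures. On this probe set it was ordered alike in every number, and the groups overlapped. The second Il2ra probe set gave 0.50, 0.04 and 0.35 for allogeneic minus syngeneic and 0.62, 0.04 and −1.06 for anti-CD3/CD28 minus syngeneic. It did not keep the order of the first: anti-CD3/CD28 was above allogeneic culture in number 1 and below syngeneic culture in number 3. On the first probe set the allogeneic minus syngeneic difference was 0.66 ± 0.49 (SE; limma, adjusted p = 1.0), or adjusted p = 0.709 with the replicate block. On the second it was 0.295. Activated T cells of other kinds make Il2ra as well. Ctla4, an inhibitory receptor of regulatory and activated T cells, was higher in anti-CD3/CD28 than in syngeneic culture in each number (1.08, 0.76 and 0.24), and had exactly equal values in allogeneic and syngeneic culture in numbers 2 and 3.

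For anti-CD3/CD28 versus syngeneic culture the 21 surface and effector genes had a median of −0.35, 13 of them lower, with −0.91 in number 3 and 0.01 and −0.07 in numbers 1 and 2. In number 3 of the same comparison the macrophage list had a median of −1.96, the dendritic cell list of −0.56 (mean −1.20) and the 8 granulocyte genes of −0.76 (mean −1.63), and the T cell list of 0.25. Over all 3 numbers the T cell list had a median of 0.28, with 11 of 13 genes higher. The summed signal of the granulocyte genes was 163 to 367 in anti-CD3/CD28 and 221 to 1370 in syngeneic cultures, with 4 to 6 and 4 of the 8 at or under the median per array. Their part in the values of the surface and effector genes was not tested. Fgl2, a suppressive secreted protein that macrophages also make, was at 4.65, 5.27 and 3.87 in anti-CD3/CD28 against 4.79, 6.34 and 7.54 in syngeneic cultures. Penk, the enkephalin precursor found in regulatory T cells, was at 5.54, 6.12 and 4.84 against 5.53, 7.18 and 8.06. Neither exceeded the median of the array in anti-CD3/CD28 replicate 3, nor did Fgl2 in anti-CD3/CD28 replicate 2, so those differences have no exact size.

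The 35 inducers, partners and stabilisers of Foxp3 had medians of −0.06 for allogeneic and −0.04 for anti-CD3/CD28 minus syngeneic. Of these, 6 were higher and 9 lower in anti-CD3/CD28 than in syngeneic culture in all 3 numbers, where 7.8% and 9.15% of all genes were. A pair of exactly equal values, 29.1% over all genes, counts as neither higher nor lower. The share of such pairs within the lists was not compared, so these counts are not read as an excess. Ikzf4, which encodes Eos, a relative of Helios that acts with Foxp3 in gene silencing, was among the 9 lower ones. It stood at 10.27, 9.04 and 8.61 in anti-CD3/CD28, against 10.43, 10.49 and 10.40 in syngeneic cultures, with no overlap between them (1.93% of all genes), and at 10.42, 10.40 and 10.15 in allogeneic cultures. The difference was −1.14 ± 0.47 (SE) on this probe set (limma, adjusted p = 1.0), and −0.09 and −0.53 on its 2 others. These did not share its sign in number 1. There the second probe set was higher in anti-CD3/CD28 than in syngeneic culture, by more than the size of −1.14. The third differed by 0.0 in that number. Both were lower in numbers 2 and 3. Nr4a1, an immediate product of T cell receptor signalling that promotes Foxp3, was higher by 1.45 ± 0.78 (SE) again with no overlap (1.93% of all genes), at 6.64, 7.93 and 8.72 in anti-CD3/CD28 against 6.05, 6.34 and 6.57 in syngeneic cultures, and Runx3 was lower by −0.89 ± 0.62, neither of them called. In allogeneic against syngeneic culture 2 of the 35 were higher in all numbers (Il2rb and Ezh2; 7.29% of all genes) and 7 lower (7.96%), among them Foxo1 (−0.87, −1.26 and −0.41) and Runx1 (−0.56, −0.76 and −0.31), both factors that take part in Foxp3 induction.

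The 13 measured genes that regulatory T cells keep low had medians of −0.17 for allogeneic and 0.12 for anti-CD3/CD28 minus syngeneic. Among them Igfbp4, an insulin-like growth factor binding protein of naive T cells, had anti-CD3/CD28 values below all others. It was at 9.34, 9.20 and 8.98 in anti-CD3/CD28, against 10.19, 11.58 and 11.20 in syngeneic and 9.60, 11.24 and 11.10 in allogeneic cultures. The anti-CD3/CD28 values did not overlap with the syngeneic (1.93% of all genes) or the allogeneic ones (0.324%). Its difference from syngeneic culture was −1.82 ± 0.52 (SE; limma, adjusted p = 1.0), and all 6 of its probe sets had a negative mean. In number 1 the differences on its other probe sets ran from −0.465 to 0.177. Il2, which Foxp3 represses, was higher in allogeneic than in syngeneic culture by 2.04, 0.87 and 3.31, and Pde3b, another target of repression, lower by −0.59, −0.79 and −0.37.

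Over 14 binding partners of the members the medians were 0.02 for allogeneic and −0.02 for anti-CD3/CD28 minus syngeneic. Sema4a, a semaphorin that binds neuropilin-1, was lower in anti-CD3/CD28 than in syngeneic culture in every number. It was at 6.72, 6.92 and 8.31 in anti-CD3/CD28, against 7.71, 8.14 and 9.62 in syngeneic and 7.17, 7.41 and 9.75 in allogeneic cultures. The difference was −1.18 ± 0.81 (SE; limma, adjusted p = 1.0), or adjusted p = 0.677 with the replicate block, and −0.86 on its second probe set. Dendritic cells make Sema4a too, and their marker list was lower in the same comparison, as given above. The part of dendritic cells in the values of Sema4a was not tested. Cdh1, the E-cadherin that CD103 binds, differed by 0.23 ± 0.55 (SE) for allogeneic minus syngeneic and was dim, with group means of 4.40 and 4.17.

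**Figure D5:**
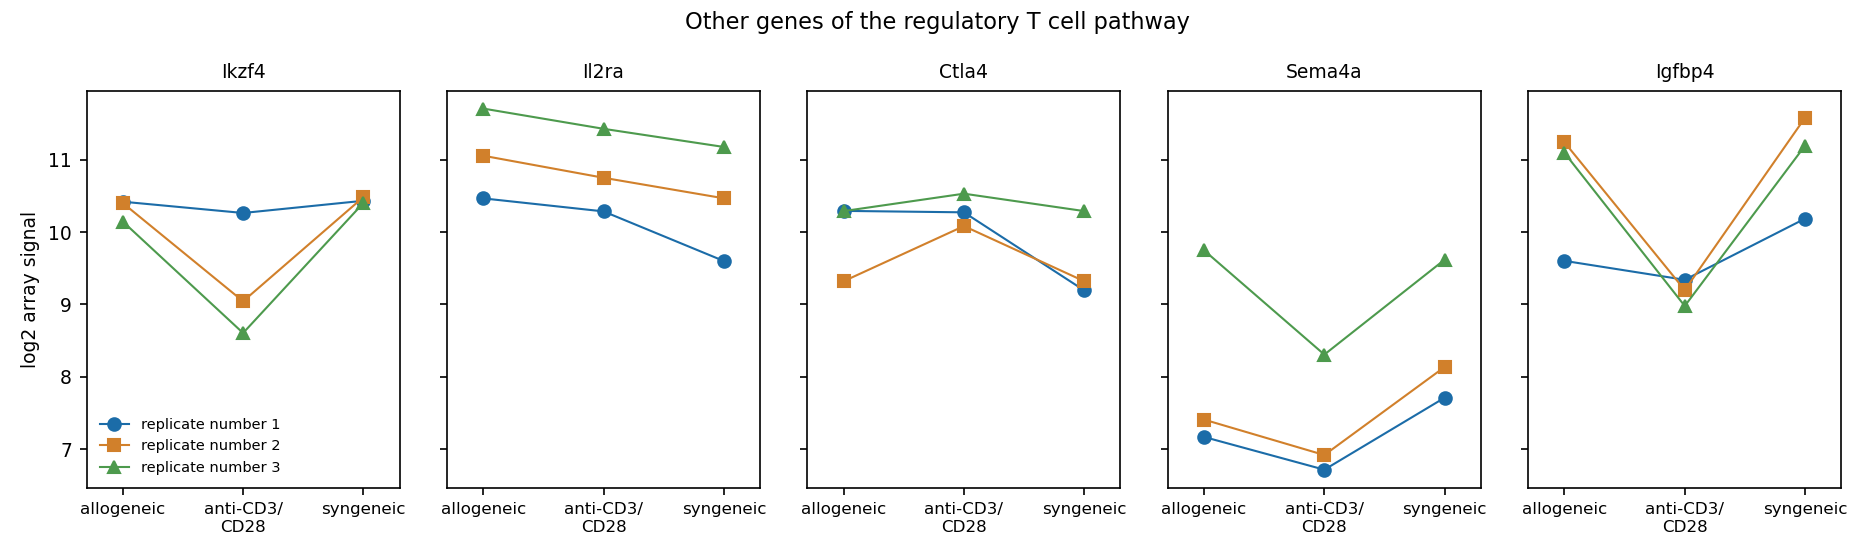
Log2 array signal (vertical axis) of Ikzf4, Il2ra, Ctla4, Sema4a and Igfbp4 in allogeneic, anti-CD3/CD28 and syngeneic cultures, with a line for each replicate number. On the brightest probe sets plotted here, Ikzf4, Sema4a and Igfbp4 were lowest in anti-CD3/CD28 culture within every number. Il2ra was lowest in syngeneic culture within every number on its plotted probe set, not on its second (−1.06 for anti-CD3/CD28 minus syngeneic in number 3). In number 1 the second Ikzf4 probe set was higher in anti-CD3/CD28 than in syngeneic culture. The other Igfbp4 probe sets differed there by −0.465 to 0.177.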

How the data were processed

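Per the submitters' processing notes, the deposited log2 signals come from RMA (robust multi-array average); the sources used here name no software version and do not say which arrays were normalized together. That table of 45101 probe sets and 9 arrays, with array medians of 4.58 to 5.67, was used without further normalization. Control probe sets (64), those listed for several genes (932) and those with no gene listed (9160) were left out. Symbols came from the platform annotation and were updated by gene ID for 34741 of 34945 probe sets.

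The tests used limma (version 3.58.1, R version 4.3.3) with 1 mean per culture, all 9 arrays, moderated test with an intensity trend, Benjamini-Hochberg adjustment over 18193 genes and a threshold of 0.05. The design without a block was the main one. The 9 pairs of arrays with a shared replicate number had deviations from their group means that correlated at 0.811 to 0.921, and the numbers were taken to pair the arrays; this rests on the data and not on the labels. Intervals named with the block use that pairing. The members, gene lists and tests were chosen with earlier results of these data known. Beside the members, genes are named from the 4 of each list with the smallest p in a comparison and from the 3 most like each member. Of the first, those described were picked after their values were seen. So were Lag3, Tnfrsf4, Il2rb, Xcr1, Cd3e, Ighm and the endothelial, collagen, lysozyme and CD8 genes. The fit was tested on simulated data. Alternatives were the block (fixed or random), other scalings, a filter on dim genes, other probe set rules, other variance priors, only the groups compared, and arrays or replicate numbers left out. The number of arrays limits the precision.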

Additional observations from a re-analysis of the deposited data

How the results depend on the processing

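With the replicate number as a block, 0 of 18193 genes and 0 of 7 members were called in each comparison, as without it, so the block changed no call; the difference of Itgae between anti-CD3/CD28 and syngeneic culture stayed at −0.82 (adjusted p = 0.729 in limma, against 1.0). No member was called in any fit, and the lowest adjusted p of a member in limma was 0.399, for that difference with a random replicate block. Over all genes, 1 was called for allogeneic versus syngeneic with the random block and 1 with arrays centred on their medians, against 0, and for anti-CD3/CD28 versus syngeneic 30 and 1. The members' errors were smaller with the replicate block than without it, as 0.20 against 1.24 (SE) for Foxp3 and 0.43 against 0.61 for Itgae. With the block all 21 of the members' 95% intervals included 0. The sign of a member's difference changed in 21 of 231 values under alternatives that left out no array of the 2 cultures compared. The block, dim-gene filter, variance priors and use of only the groups compared cannot alter a difference in this balanced design. The changes came under other scalings and probe set rules, and their cause was not tested. For allogeneic minus syngeneic the most variable probe set gave 0.047 for Itgae. For anti-CD3/CD28 minus syngeneic quantile normalization, with and without the block, gave 0.033 for Foxp3, 0.051 for Capg and 0.042 for Izumo1r, median centring gave 0.048 for Capg and 0.046 for Izumo1r, and the most variable probe set gave 0.20 for Ikzf2 and 0.082 for Itgae. For allogeneic minus anti-CD3/CD28 quantile normalization, with and without the block, gave −0.069 for Ikzf2 and −0.14 for Capg. Median centring gave −0.12 for Ikzf2, −0.12 for Capg and −0.025 for Gpr83. The mean of all probe sets gave −0.047 for Ikzf2, and the most variable one −0.52 for Ikzf2 and −0.035 for Itgae. Leaving out a replicate number with the replicate block, chosen after seeing the data, changed the sign of allogeneic minus syngeneic for Nrp1 (0.32, without number 2), Capg (0.073, without number 2) and Izumo1r (−0.27, without number 3). It did so for anti-CD3/CD28 minus syngeneic for Foxp3 (0.03, without number 1), Capg (0.15, without number 3) and Izumo1r (0.14 and 0.024, without numbers 1 and 2). For allogeneic minus anti-CD3/CD28 it did so for Foxp3 (0.12) and Itgae (−0.21) without number 2, and for Ikzf2 (−0.37), Capg (−0.24) and Gpr83 (−0.018) without number 3. Leaving out 1 array or 1 replicate number in turn, 19 of 21 differences changed sign at least once, the exceptions being Itgae in both comparisons with syngeneic culture; a left-out array unbalances the replicate numbers. The ranges for allogeneic minus syngeneic were −1.47 to 0.85 for Foxp3, −1.19 to 0.20 for Ikzf2, −1.04 to 0.50 for Nrp1, −0.86 to −0.029 for Itgae, −0.85 to 0.71 for Capg, −0.71 to 1.27 for Gpr83 and −0.55 to 0.60 for Izumo1r. The ranges for anti-CD3/CD28 minus syngeneic were −1.24 to 0.91 for Foxp3, −1.22 to 0.18 for Ikzf2, −1.45 to 0.085 for Nrp1, −1.20 to −0.36 for Itgae, −0.61 to 0.69 for Capg, −0.69 to 1.09 for Gpr83 and −0.65 to 0.24 for Izumo1r. The ranges for allogeneic minus anti-CD3/CD28 were −1.34 to 1.06 for Foxp3, −0.61 to 0.45 for Ikzf2, −0.11 to 1.11 for Nrp1, −0.21 to 0.86 for Itgae, −0.78 to 0.67 for Capg, −0.97 to 1.07 for Gpr83 and −0.48 to 0.77 for Izumo1r.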
